A study of Mus musculus with 24 samples.

Results

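The 6 genes described here encode Golgi enzymes that reshape N-glycans, the sugar chains attached to asparagine residues of secreted and membrane proteins. Man2a1 and Man2a2 encode the Golgi alpha-mannosidases II and IIx. Mgat1, Mgat3, Mgat4c and Mgat5 belong to a group of N-acetylglucosaminyltransferases that mostly start branches, although the product of Mgat3 does not. The genes were chosen by name, and each was represented by 1 probe set whose transcript identifier maps to that gene alone. They are 6 of the 909 genes that could be named on an array of 1246 probe sets directed at glycan-related genes.

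RNA came from whole retinas of mice that carry the P347S mutation as a transgene (labelled RP mutant, P347S+) and of normal mice (P347S-), at ages of 1, 2, 3 and 4 months. Each of these 8 groups had 3 arrays, 24 in all. The study's design text describes a slow loss of rod photoreceptors that is barely visible at 1 month and advanced at 4 months, and asks which glycan-related genes go with its early and late stages. The promoter of the transgene, the strain of either genotype and the number of animals behind an array are not given in the sources used here, and the labels give the sex as unknown. Whether the 3 arrays of a group stem from 3 different animals is not labelled, and all p-values here rest on the spread between samples, which may be technical. Signals are log2 values that the authors made with RMA, an array summary method, and a difference of 1 is a doubling.

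N-glycans leave the endoplasmic reticulum as mannose-rich chains. In the Golgi, GlcNAc-transferase I (the product of Mgat1) adds the first branching sugar, and an alpha-mannosidase II or IIx (Man2a1 or Man2a2) can then remove the outer mannoses of the other arm. This opens the way for further transferases, of which the product of Mgat5 adds a branch that is often extended into long chains bound by galectins, while the product of Mgat3 adds a bisecting sugar that hinders further branching. Mgat4c is a relative of the enzymes that branch the arm started by Mgat1.

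Man2a1 lies on chromosome 17 (64600688 to 64755110), Man2a2 on chromosome 7 (80349095 to 80371483), Mgat1 on chromosome 11 (49244191 to 49263027), Mgat3 on chromosome 15 (80173651 to 80215519), Mgat4c on chromosome 10 (101681487 to 102391851) and Mgat5 on chromosome 1 (127204919 to 127488334). These are the gene spans of the RefSeq annotation of GRCm38.p6, introns included, and no 2 of the genes share a chromosome. RefSeq promoter windows on that build were at hand for 4 of the 6 genes, and 1 window is shown for each of 3 genes whose signals changed with genotype, the first along the chromosome, to show their range of base composition. Each is the 250 bases before an annotated start, 5′ to 3′ on the plus strand, with capitals marking GC boxes (GGGCGG or, on the other strand, CCGCCC). The windows are chr17:64601399-64601648 for Man2a1, which lies within the annotated gene span, chr11:49243941-49244190 for Mgat1 and chr10:101681237-101681486 for Mgat4c.
Man2a1: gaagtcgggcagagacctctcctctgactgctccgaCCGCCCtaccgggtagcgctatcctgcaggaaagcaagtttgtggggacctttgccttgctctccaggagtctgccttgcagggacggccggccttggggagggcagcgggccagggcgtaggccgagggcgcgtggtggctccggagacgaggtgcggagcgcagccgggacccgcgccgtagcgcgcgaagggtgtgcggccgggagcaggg
Mgat1: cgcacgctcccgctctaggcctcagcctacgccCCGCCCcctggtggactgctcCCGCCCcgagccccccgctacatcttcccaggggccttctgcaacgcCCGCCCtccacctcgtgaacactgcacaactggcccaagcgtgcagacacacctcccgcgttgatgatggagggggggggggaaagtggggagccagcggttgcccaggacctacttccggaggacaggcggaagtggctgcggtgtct
Mgat4c: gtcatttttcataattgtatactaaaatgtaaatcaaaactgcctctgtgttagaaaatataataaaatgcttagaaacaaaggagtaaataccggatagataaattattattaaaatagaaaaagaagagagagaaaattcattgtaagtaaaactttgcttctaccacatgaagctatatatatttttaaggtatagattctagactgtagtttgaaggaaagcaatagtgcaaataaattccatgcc
The Man2a1 window was 70.4% G or C with 25 CpG sites and 1 GC box, and the Mgat1 window was 68.8% with 18 CpG sites and 3 GC boxes. The Mgat4c window was 26.8% with 1 CpG site and no GC box. The other windows lie closer together. The other 2 of Mgat1 were 50% G or C with no GC box and 62.4% with 3 GC boxes. The other 3 of Mgat4c were 38.4% and 47.6% with no GC box and 47.2% with 1 GC box. The Mgat5 window was 56% with 1 GC box. Over all 32851 RefSeq promoter windows of this length the median was 52.4% G or C with 6 CpG sites, and 32.7% held a GC box. TAATCC, a core sequence of sites bound by the photoreceptor factor CRX, was searched on both strands and was in none of the 9 annotated windows of Man2a1, Mgat1, Mgat4c and Mgat5, against 6.25% of all windows. These matches describe letters only.

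Averaged over the 4 ages, 4 of the 6 genes passed the test between genotypes, limma with Benjamini-Hochberg adjustment over all 1246 probe sets and a threshold of 0.05. Man2a2 and Mgat1 were lower in mutant retinas, and Man2a1 and Mgat4c were higher. Mgat3 and Mgat5 did not pass. By the same rule 22.6% of all probe sets passed, 172 higher and 110 lower. After a second quantile normalization the split was 161 to 157, where second means after the authors' RMA, whose steps are not given. With 1 array left out the total ran from 237 to 344, and without mutant replicate 3 of 2 months 170 probe sets passed as falls. The median difference over the members was 0.04 on the log2 scale, and over all probe sets it was -0.03. In whole retina, fewer cells of a type and less RNA per cell cannot be told apart.

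**Figure D1:**
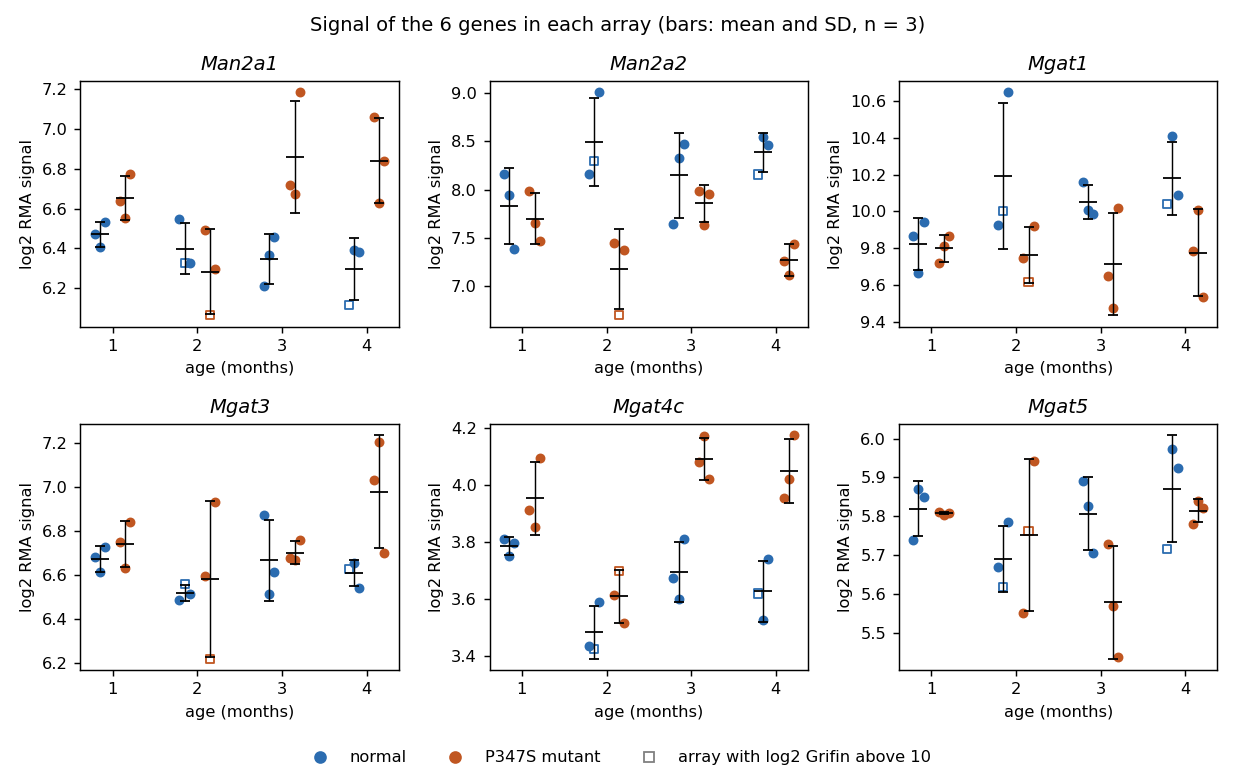
Log2 RMA signal of each of the 6 genes (vertical axes, one scale per gene) against age in months. Each point is 1 array, blue for normal and orange for P347S mutant retinas, with the mean and SD of 3 arrays; open squares are the 3 arrays with a log2 Grifin signal above 10. At 4 months the mutant arrays of Man2a2 sit between 7.11 and 7.44, all below the normal arrays at 8.16 to 8.54, and those of Man2a1 and Mgat4c sit above the normal arrays.

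Grifin, a galectin relative known from the lens, read above 10 in 3 arrays: normal at 2 months replicate 2, mutant at 2 months replicate 2 and normal at 4 months replicate 1. Dcn, the connective tissue proteoglycan decorin, had its highest reading, 6.90, in normal retinas of 2 months replicate 3. Gnb1, a subunit of rod transducin and the 1 measured gene of 14 rod markers, ran from 12.64 to 13.26 in normal and from 12.62 to 13.04 in mutant retinas, near the top of the array's range (14.17). Its difference of -0.21 ± 0.06 (SE, limma adjusted p = 0.0121) did not pass after a second quantile normalization (-0.08, adjusted p = 0.226) or without the 3 arrays (-0.19, adjusted p = 0.0503), so the share of rods cannot be read here. Its probe set may be shared with other transcripts, as its suffix s marks.

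Man2a2, alpha-mannosidase IIx, had the third largest fall over the 4 ages among the 1246 probe sets. Its mutant signal was lower than normal by 0.71 ± 0.12 on the log2 scale (SE, n = 24 arrays), a 1.64-fold difference (95% interval of the log2 difference -0.97 to -0.45, limma adjusted p = 0.000226). The fall passed at 2 and at 4 months and did not pass at 1 or 3 months. All 8 other settings and all 24 fits that left out 1 array kept the call over the 4 ages, with differences between -0.78 and -0.65.

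At 1 month Man2a2 read 8.16, 7.95 and 7.39 in the 3 normal arrays and 7.98, 7.65 and 7.47 in the 3 mutant arrays. The groups overlapped, and the difference was -0.13 (adjusted p = 0.964). By 2 months the normal arrays were at 8.16, 8.30 and 9.01 and the mutant arrays at 7.45, 6.70 and 7.38. Here every mutant array was below every normal array, and the lowest mutant value (6.70) came from an array with a high Grifin signal. The highest normal value (9.01) came from the array with the highest Dcn signal. The difference of -1.31 ± 0.25 (limma adjusted p = 0.00502) was 2.48-fold. Without the 3 arrays high in Grifin it was -1.17 (adjusted p = 0.116), with both marker signals, Grifin and Dcn, in the model -0.98 (adjusted p = 0.142), and in a fit of the 6 arrays alone the adjusted p was 0.115. The direction therefore held in these 3 settings while the call did not. The call was kept in 6 of the 9 other settings and in all 24 fits that left out 1 array.

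At 3 months normal retinas gave 7.65, 8.33 and 8.47 for Man2a2 and mutant retinas 7.99, 7.63 and 7.96. One normal array lay among the mutant arrays, and the difference was -0.29 (95% interval -0.81 to 0.22, adjusted p = 0.448). The normal arrays of 4 months read 8.16, 8.54 and 8.46, and the mutant arrays 7.26, 7.11 and 7.44. The genotypes were 0.72 apart at their nearest arrays, as they had been at 2 months, and their means were 8.39 ± 0.20 and 7.27 ± 0.16 (SD, n = 3). The difference of -1.11 ± 0.25 was 2.16-fold (limma adjusted p = 0.00441), and it passed under every alternative tried at this age. In the order of the 8 group means, mutant retinas of 2 months (7.18) and 4 months (7.27) were lowest and did not differ beyond their spread. A gap of 0.43 separated their means from that of mutant retinas of 1 month, and the other neighbours in the order overlapped.

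Man2a1, alpha-mannosidase II, differed in the opposite direction. Over the 4 ages it was 1.22-fold higher in mutant retinas, a log2 difference of 0.28 ± 0.07 (SE, n = 24 arrays, 95% interval 0.14 to 0.42, limma adjusted p = 0.00467). After a second quantile normalization the difference was 0.15 and did not pass (adjusted p = 0.129). It passed at 3 and 4 months, and not at 1 or 2 months.

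The normal arrays of 1 month read 6.47, 6.41 and 6.53 for Man2a1, and the mutant arrays 6.64, 6.55 and 6.77. Every mutant array was above every normal array, but by as little as 0.02, and the difference of 0.18 did not pass (adjusted p = 0.796). At 2 months the normal arrays were at 6.55, 6.32 and 6.32 and the mutant arrays at 6.49, 6.06 and 6.29, with 1 mutant array inside the normal range and the others below it. The difference was -0.12 (95% interval -0.40 to 0.17, adjusted p = 0.755).

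At 3 months Man2a1 read 6.21, 6.37 and 6.46 in normal and 6.72, 6.67 and 7.19 in mutant retinas, with no overlap. The difference of 0.51 ± 0.14 was 1.43-fold (limma adjusted p = 0.0197). At 4 months the normal arrays were at 6.11, 6.39 and 6.38 and the mutant arrays at 7.06, 6.63 and 6.84, again with no overlap, and the difference was 0.55 ± 0.14 (1.46-fold, limma adjusted p = 0.00908). Both calls were lost after a second quantile normalization (0.34, adjusted p = 0.113, and 0.35, adjusted p = 0.0985). The call at 3 months was also lost in a fit of its 6 arrays alone (adjusted p = 0.0878) and without normal replicate 1 (adjusted p = 0.0856), normal replicate 2 (0.0506) or mutant replicate 3 (0.120) of that age. The call at 4 months was also lost without normal replicate 1 (adjusted p = 0.0574), without mutant replicate 1 (0.0634), or without all 3 arrays high in Grifin (0.46, adjusted p = 0.0536). In the order of group means the 5 lowest were mutant retinas of 2 months and all 4 normal groups, from 6.28 to 6.47, and neighbours among them overlapped. Mutant retinas of 1, 4 and 3 months followed at 6.65, 6.84 and 6.86.

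The paralogs Man2a1 and Man2a2 encode enzymes of the same step, and over the 4 ages their signals changed in opposite directions between genotypes. The log2 signal of Man2a1 minus that of Man2a2 was taken within each array, which removes any factor that scales a whole array. It says nothing of which transcript is more abundant, since the probe sets differ. The mean of this difference was -1.84 ± 0.45 in normal and -0.84 ± 0.34 in mutant retinas (SD, n = 12 each). Mutant retinas were thus higher by 0.99 ± 0.13 (SE), a 1.99-fold change of the ratio. An exact permutation test with genotype labels permuted within age over 160000 labelings gave a 2-sided p = 8.75e-05, where the smallest p it can give is 1.25e-05. The pair was chosen with earlier results of these data known.

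At 1 month the within-array difference was -1.69, -1.54 and -0.86 in normal and -1.34, -1.10 and -0.69 in mutant arrays, and the groups overlapped (change 0.31, exact permutation p = 0.4). At 2 months the values were -1.62, -1.97 and -2.68 in normal and -0.96, -0.64 and -1.09 in mutant arrays, a change of 1.20. At 3 months they were -1.44, -1.96 and -2.02 against -1.27, -0.96 and -0.77, a change of 0.81. From 2 months on no mutant array overlapped a normal array of its age, and each of these ages gave an exact permutation p of 0.1, the smallest that 3 against 3 arrays allow. At 4 months the normal arrays were within 0.11 of each other at -2.04, -2.15 and -2.08 and the mutant arrays were at -0.20, -0.49 and -0.60, a change of 1.66 or a 3.16-fold ratio. At 2 months the genotype differences behind the change were -1.31 for Man2a2 and -0.12 for Man2a1, which did not pass. Both were negative at that age, so Man2a1 made the change smaller. At 3 months they were -0.29 for Man2a2 and 0.51 for Man2a1. The deviations of the 2 genes from their group means had r = 0.30 over the 24 arrays, a description of arrays that were normalized by one method.

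**Figure D2:**
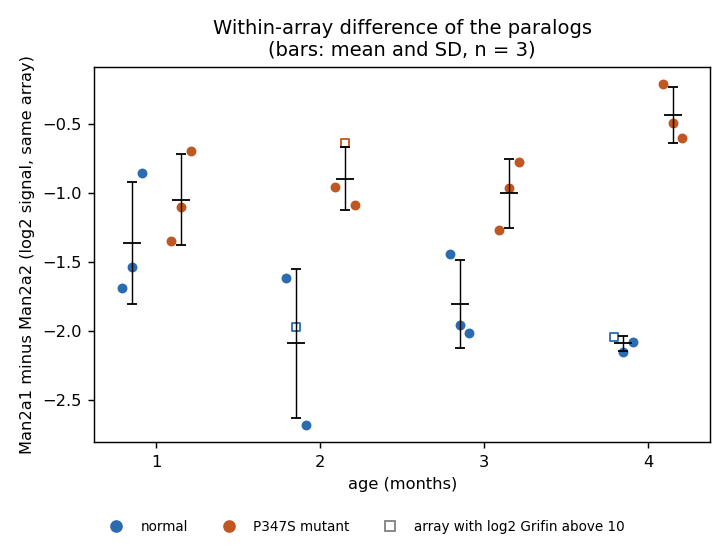
Log2 signal of Man2a1 minus that of Man2a2 in the same array (vertical axis) against age in months. Points are arrays, blue for normal and orange for P347S mutant retinas, with the mean and SD of 3 arrays, and open squares mark the 3 arrays high in Grifin. The genotypes overlap at 1 month and stand 1.66 apart in their means at 4 months.

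Mgat1, whose product GlcNAc-transferase I begins every hybrid and complex N-glycan, was lower in mutant retinas over the 4 ages by 0.30 ± 0.08 on the log2 scale (SE, n = 24 arrays, 1.23-fold, 95% interval -0.47 to -0.13, limma adjusted p = 0.0126). All 8 other settings and all 24 fits without 1 array kept this call. Normal arrays ran from 9.66 to 10.65 with a median of 10.01, and mutant arrays from 9.47 to 10.02 with a median of 9.76, so the genotypes overlapped as a whole.

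At 1 month Mgat1 read 9.86, 9.66 and 9.94 in normal and 9.72, 9.81 and 9.86 in mutant retinas, and the difference was -0.02. At 2 months the values were 9.93, 10.004 and 10.65 against 9.75, 9.62 and 9.92, and at 3 months 10.16, 10.01 and 9.99 against 9.65, 9.47 and 10.02. The highest normal value, 10.65 at 2 months, came from the array with the highest Dcn signal. The next highest Dcn signals were in mutant replicate 3 of 4 months (6.51) and normal replicate 2 of 2 months (6.45). Mgat1 read 9.54 in the former, the lowest of its group, and 10.004 in the latter, the middle of its group. At 4 months normal arrays were at 10.04, 10.41 and 10.09 and mutant arrays at 9.78, 10.01 and 9.54. At 2 and 4 months the groups did not overlap, by 0.01 and 0.04 at their nearest arrays, but no single age passed (-0.43, -0.34 and -0.40 at 2, 3 and 4 months, limma adjusted p = 0.179, 0.177 and 0.128). With 1 array left out the difference ran from -0.57 to -0.21 at 2 months, weakest without normal replicate 3 of that age, and from -0.49 to -0.22 at 3 months, weakest without mutant replicate 2. At 4 months the difference passed after a second quantile normalization (-0.42, adjusted p = 0.0462) and with age and replicate number as a block (adjusted p = 0.0458). The group means of normal retinas of 3, 4 and 2 months, 10.05 to 10.19, were the highest, and those of normal retinas of 1 month and of the 4 mutant groups ran from 9.71 to 9.82.

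Mgat4c had the smallest p of the 6 genes over the 4 ages, with a mutant signal higher by 0.28 ± 0.04 (SE, n = 24 arrays, 1.21-fold, 95% interval 0.19 to 0.36, limma adjusted p = 5.81e-05). The call was kept in all 24 fits without 1 array and in the 7 other settings in which the gene was tested. Its mean signal of 3.79 was below the 25th percentile of all probe sets (3.83), where the background is not known, so the fold is uncertain, and with a filter at that percentile it was not tested.

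At 1 month Mgat4c read 3.81, 3.75 and 3.80 in normal and 3.91, 3.85 and 4.10 in mutant retinas. At 2 months both genotypes were lower, at 3.44, 3.42 and 3.59 against 3.61, 3.70 and 3.52, and the groups overlapped. Neither age passed (0.17, adjusted p = 0.589, and 0.13, adjusted p = 0.524). At 3 months the normal arrays were at 3.67, 3.60 and 3.81 and the mutant arrays at 4.08, 4.17 and 4.02. At 4 months they were at 3.62, 3.53 and 3.74 and at 3.95, 4.02 and 4.17. Mutant arrays were above all normal arrays of their age at both times, and both differences passed (0.39 ± 0.08, limma adjusted p = 0.00496, and 0.42 ± 0.08, adjusted p = 0.00212). A fit of the 6 arrays of 3 months alone lost that call (adjusted p = 0.0626). The group means ordered with both groups of 2 months lowest (3.48 and 3.61) and the mutant groups of 1, 4 and 3 months highest (3.95, 4.05 and 4.09), clear of the rest.

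Mgat3, the bisecting enzyme, was higher in mutant retinas by 0.13 ± 0.07 and did not pass (95% interval -0.01 to 0.27, limma adjusted p = 0.159). Through 3 months the groups overlapped, at 6.68, 6.61 and 6.73 against 6.75, 6.63 and 6.84 at 1 month and 6.87, 6.51 and 6.62 against 6.68, 6.67 and 6.76 at 3 months. At 2 months normal arrays were close together at 6.49, 6.56 and 6.51, while the mutant arrays were spread over 6.60, 6.22 and 6.93. At 4 months the arrays did not overlap, by 0.04 at the nearest, with 6.63, 6.66 and 6.54 in normal and 7.03, 7.20 and 6.70 in mutant retinas. That difference of 0.37 (limma adjusted p = 0.0804) passed with each array centred on its median (0.41, adjusted p = 0.0311). It also passed without mutant replicate 2 (adjusted p = 0.0316) or 3 (0.0345) of 2 months or without mutant replicate 3 of 4 months (0.51, adjusted p = 0.0171). Over the 4 ages it passed without mutant replicate 2 of 2 months (0.18, adjusted p = 0.0319).

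Mgat5, whose branch carries the chains favoured by galectins, differed least, by -0.06 ± 0.05 over the 4 ages (95% interval -0.16 to 0.04, limma adjusted p = 0.386). Its normal arrays ran from 5.62 to 5.97 with a median of 5.81, and its mutant arrays from 5.44 to 5.94 with a median of 5.79. The group with the lowest mean was mutant retinas of 3 months, whose arrays read 5.73, 5.57 and 5.44 against 5.89, 5.83 and 5.71 in normal retinas, a difference of -0.23 that did not pass (adjusted p = 0.112). The groups of the other 3 ages overlapped as well. The interval over the 4 ages allows a mutant signal lower by up to 0.16 or higher by up to 0.04.

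**Figure D3:**
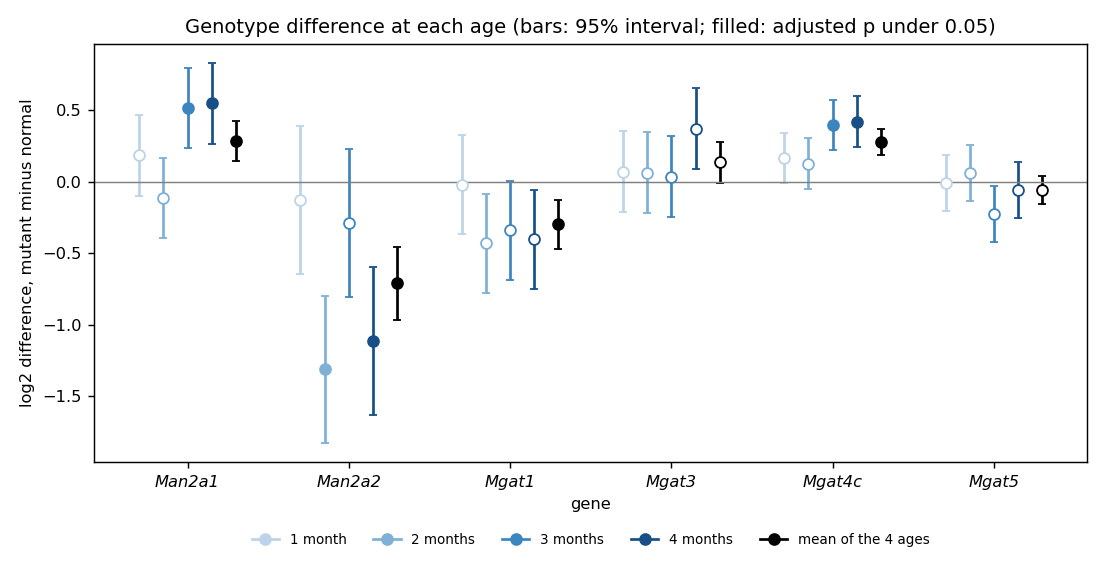
Mutant minus normal difference in log2 signal (vertical axis) for each gene, at 1, 2, 3 and 4 months (light to dark blue) and as the mean of the 4 ages (black). Bars are 95% intervals from limma, and filled points passed at an adjusted p under 0.05: Man2a2 at 2 and 4 months, Man2a1 and Mgat4c at 3 and 4 months, and these genes with Mgat1 over the 4 ages.

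By age, no member passed limma's test at 1 month, where 0.321% of all probe sets did, and none had an unadjusted p under 0.05, as 115 of all 1246 probe sets did. At 2 months 1 of 6 passed (Man2a2), with 3.45% of all probe sets, at 3 months 2 of 6 (Man2a1 and Mgat4c), with 12%, and at 4 months 3 of 6 (Man2a2, Man2a1 and Mgat4c), with 12.9%. Counting arrays that did not overlap between genotypes instead gave 2, 2, 2 and 5 of the 6 genes from 1 to 4 months, against 22.1%, 17.4%, 32.6% and 30% of all probe sets. The exception at 4 months was Mgat5.

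Whether the genotype difference itself changed with age was tested with limma's moderated F test. None of the 6 passed, and 0.321% of all probe sets did. At an unadjusted p under 0.05 there were 3, Man2a2, Man2a1 and Mgat4c, and 180 of all 1246 probe sets, so no member is shown to differ more at 4 months than at 1 month. Man2a2 had the smallest F-test p (0.00562, adjusted p = 0.180), with a difference at 4 months lower than that at 1 month by 0.98 ± 0.35. The same quantity was 0.36 ± 0.19 for Man2a1 (adjusted p of the F test = 0.198) and 0.25 ± 0.12 for Mgat4c (0.335).

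From 1 to 4 months within mutant retinas none of the 6 passed by limma (2.65% of all probe sets did), and none had an unadjusted p under 0.05, as 188 of all 1246 probe sets did. Man2a2 read -0.43 over that span (adjusted p = 0.458) and Man2a1 0.19 (adjusted p = 0.626). Within normal retinas 0% of all probe sets passed by limma, and 92 of 1246 had an unadjusted p under 0.05. Among these were 2 members with higher signals at 4 months, Man2a2 (0.56, adjusted p = 0.619) and Mgat1 (0.36, adjusted p = 0.638). For Man2a2 the 2 changes with age had opposite signs, and neither passed.

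For the 4 members that passed, the genes most alike in pattern were found by Pearson's r of log2 signal over the 24 arrays, among 908 other genes. These are descriptions, since the arrays share genotype, age and normalization. Man2a2 was most like Ovgp1, which encodes an oviductal glycoprotein of the chitinase family (r = 0.90 over all arrays, 0.91 in the 12 mutant and 0.78 in the 12 normal arrays). The mutant minus normal difference of Ovgp1 was -0.28 ± 0.06 (SE), smaller than the -0.71 of Man2a2. Next came the synaptic scaffold gene Dlg1 (0.75) and Fryl (0.74), at a clear distance. Within the mutant arrays alone r was 0.35 for Dlg1.

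Man2a1 was most like the sulfotransferase gene Chst2 (r = 0.89), the proteoglycan gene Agrn (agrin, 0.87) and the galactosyltransferase gene B4galt5 (0.86). Within the mutant arrays the 3 values were 0.92, 0.87 and 0.89, and within the normal arrays, where Man2a1 varied less, 0.40, 0.46 and 0.56. Mgat1 was most like Aup1 (0.85), Ddb1 (0.83) and Galnt10 (0.83), an enzyme that starts O-glycans, with r of at least 0.74 within each genotype. Mgat4c was most like B3galt2, a galactosyltransferase gene whose probe set may be shared (suffix s, 0.90), the receptor phosphatase Ptprz1 (0.88) and the growth factor Igf1 (0.88). Among the members themselves Man2a1 and Mgat4c had r = 0.70 over all arrays and -0.13 in their deviations from group means, and Man2a2 and Mgat1 had 0.63 and 0.29.

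The steps around these enzymes were described with gene lists written from general knowledge, with earlier results of these data known. Over the 4 ages 22.6% of all probe sets passed, beside which the counts of each list are to be read. Of the enzymes that trim glucose and mannose before alpha-mannosidases II and IIx act, 1 of 12 was measured. This was the glucosidase subunit Ganab, which did not pass (-0.07, limma adjusted p = 0.543). Among 7 other branching and core enzymes 6 were measured, and 1 rose: Fut8, which adds the core fucose, by 0.25 ± 0.05 (limma adjusted p = 0.00148). Mgat2, which acts directly after alpha-mannosidases II and IIx, read 0.03 (limma adjusted p = 0.737). Mgat5b, a relative of Mgat5, read 0.15 (adjusted p = 0.226). Both are named after their values were seen.

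The list with the most calls was that written for the extension and capping of branches with galactose and sialic acid. Whether each of its enzymes acts on N-glycans in these retinas was not tested. Of the 12 listed genes 11 were measured. Over the 4 ages 7 rose, 2 fell and 2 did not pass, where 22.6% of all probe sets passed. The median difference of the list was 0.24, against -0.03 over all probe sets. Among the rises were B3gnt2, which builds poly-N-acetyllactosamine chains (0.56 ± 0.07, suffix s, limma adjusted p = 4.19e-06), B4galt5 (0.44 ± 0.06, adjusted p = 1.83e-05) and the sialyltransferase St3gal4 (0.32 ± 0.07, suffix s, adjusted p = 0.00134). B4galt1, the first described galactosyltransferase of N-glycans, fell by 0.36 ± 0.05 (adjusted p = 1.10e-05). The other fall, B4galt3 (-0.17, adjusted p = 0.0372), is named after its value was seen. At 1 month none of the list passed, at 2 months 1 rose and 1 fell, and at 3 and 4 months 5 rose and 1 fell. Of all probe sets 0.321%, 3.45%, 12% and 12.9% passed at these 4 ages. Over the 4 ages 6 genes of the list rose and 3 fell after a second quantile normalization. Without the 3 arrays high in Grifin 7 of them rose and 1 fell.

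Of 28 genes for the lipid-linked precursor and its transfer to proteins 16 were measured and 2 fell, the glucosyltransferase Alg10b (-0.24 ± 0.05, suffix s, limma adjusted p = 0.000700) and the transferase subunit Dad1 (-0.15 ± 0.05, adjusted p = 0.0297). The call of Dad1 was lost without the 3 arrays high in Grifin (adjusted p = 0.0852) and without any 1 of several arrays, and after a second quantile normalization 1 gene of this list rose and 5 fell. All 10 genes for the supply of UDP-GlcNAc, the sugar donor of the Mgat enzymes, were measured, and 1 passed: Gfpt1, the rate-limiting enzyme of that route, fell by 0.21 ± 0.05 (limma adjusted p = 0.00319).

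Of 6 mannosidases and related enzymes of the lysosome and cytosol 2 were measured and neither passed. Man2b1, a lysosomal relative of Man2a1 and Man2a2, read -0.12 (limma adjusted p = 0.149), and after a second quantile normalization it passed as a fall (-0.16, adjusted p = 0.0275). Manba, the beta-mannosidase, read 0.24 (adjusted p = 0.0873) and passed with age and replicate number as a block (adjusted p = 0.0277) or without normal replicate 3 (0.0437) or mutant replicate 1 (0.0482) of 3 months. Of 9 galectins, which bind branched N-glycans, 8 were measured and 1 rose, Lgals9 (0.71 ± 0.11, suffix s, adjusted p = 7.47e-05). After a second quantile normalization 2 of the 8 also fell.

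**Figure D4:**
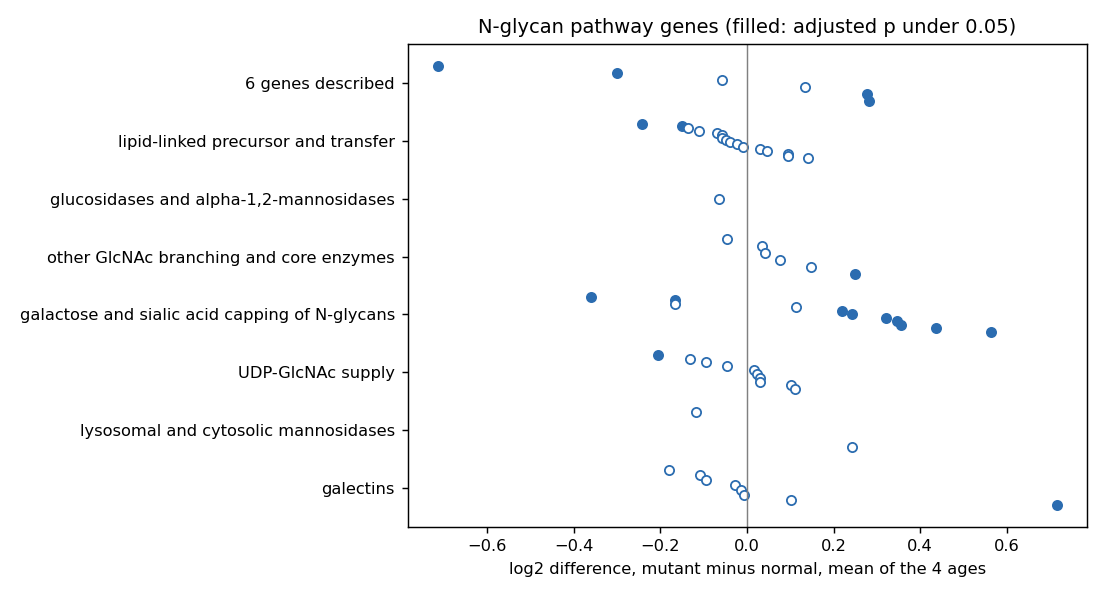
Mutant minus normal difference in log2 signal, mean of the 4 ages (horizontal axis), of the 6 genes and of each measured gene of the 7 lists around them. Each point is 1 gene, filled at an adjusted p under 0.05. Man2a2 at -0.71 lies lowest of all genes shown, and Lgals9 at 0.71 and B3gnt2 at 0.56 lie highest.

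Markers of other retinal cells also moved with genotype, where 22.6% of all probe sets passed over the 4 ages. Of 9 microglial markers 4 were measured and all 4 rose over the 4 ages, and their summed linear signal, as log2, was 7.99 to 8.37 in normal and 8.66 to 9.66 in mutant arrays. Of 10 markers of Müller glia and astrocytes 4 were measured and all 4 rose, with sums of 7.54 to 9.01 and 8.19 to 9.64. That list holds Vcam1, Icam1, Fgf2 and Cd44 beside genes such as Gfap and Glul. The count of 4 does not show that Gfap or Glul was among the rises. Which cells carry these rises was not tested. Of 8 markers of endothelium and pericytes 4 were measured and 2 rose, with sums of 7.15 to 7.51 and 7.20 to 7.89. Of the other lists 1 gene of 5 was measured for ganglion cells (not passing), 1 of 5 for lens (Grifin, not passing), 2 of 5 for pigment epithelium, choroid and sclera (neither passing) and 2 of 4 for blood, of which the platelet gene Pf4 fell by 0.17 ± 0.05 (limma adjusted p = 0.0133). No gene of the cone or of the bipolar and amacrine lists was matched. The part of these cell types in the differences of the 6 genes was not tested.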

How the data were processed

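RNA from 24 retina samples was measured on an Affymetrix array directed at glycan-related genes. Biotin-labelled cRNA was made from Trizol-extracted total RNA, per the labels' protocols. The deposited log2 signals were computed by the authors by RMA, according to the submitters' processing notes; the RMA steps, the arrays normalized together, the background and the genome build of the probes are not given in the sources used here. The values ran from 1.90 to 14.17 and array medians from 5.15 to 5.34, and nothing was scaled again. The number of arrays limits the precision.

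Probe sets were named by matching their transcript identifiers to RefSeq genes: 963 of 1246 matched, to 909 genes, and 283 stayed unnamed. A suffix s, x or a in a probe set's name means that its probes can also match further transcripts. The 6 genes have none of these suffixes.

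One linear model with a mean per group was fitted to all 24 arrays in R 4.3.3 with limma 3.58.1 (lmFit and eBayes, 16 residual and 4.37 prior degrees of freedom). Tests were 2-sided and adjusted by Benjamini-Hochberg over the 1246 probe sets. The fit and the permutation test were tested on simulated data. All 6 genes are named whatever their test. From each pathway list up to 4 genes with the smallest p over the 4 ages are named among those that passed, or 2 where none did, and from the patterns over arrays the 3 most alike. A gene with several probe sets is represented by the brightest. The members, lists and alternatives were chosen with earlier results of these data known.

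Pairing by replicate number was checked by subtracting each group's mean and correlating, across probe sets, the remainders of the mutant and the normal array that share a number and an age. The correlation was above 0.1 in 3 of 12 pairs, the 3 pairs of 2 months (0.33, 0.66 and 0.25). Since the 3 remainders of a group cancel out, the 3 correlations of an age are not independent. Arrays of unlike number were not compared, and replicate 2 of both groups of 2 months was high in Grifin. Pairing by number is therefore not established. Alternatives were centring or quantile normalization of the arrays, a filter at the 25th percentile of signal, an intensity trend, only the arrays compared, the replicate number as a block, leaving out the 3 arrays high in Grifin, Grifin and Dcn as covariates, and leaving out each array in turn.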

Additional observations from a re-analysis of the deposited data

How the results depend on the processing

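At 1 month the count of 4 probe sets became 10 with centred arrays, 8 after quantile normalization, 7 with the filter, 28 with only the arrays compared and 7 with the replicate block within age (3 to 13 with 1 array left out). At 2 months 43 became 2 with only the arrays compared, 1 without the 3 arrays high in Grifin and 6 with the covariates (14 to 62 with 1 array left out), and the 1 member became 0 in each of these 3 settings. At 3 months 150 became 40 with only the arrays compared (66 to 168), and the 2 members became 1 after quantile normalization, 1 with the filter, which removes Mgat4c, and 0 with only the arrays compared (1 to 2). At 4 months 161 became 103 with only the arrays compared (107 to 179). For the change with age 4 became 0 with the replicate block, with the block within age, without the 3 arrays and with the covariates (0 to 31). From 1 to 4 months, 33 in mutant retinas became 9 to 45 with 1 array left out, and 0 in normal retinas became 1 with the trend and 1 with only the arrays compared. Why these counts moved was not tested, beyond the fewer arrays or genes of each setting.

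Reversals were confined to member differences that had not passed. Centred arrays gave Mgat1 0.00978 and Mgat5 0.0211 at 1 month and Mgat5 -0.0244 from 1 to 4 months in mutant retinas. Quantile normalization gave Mgat3 -0.0284 at 1 month and -0.125 at 3 months, and Mgat5 -0.0751 from 1 to 4 months in mutant retinas. The covariates gave Mgat3 -0.0149 at 2 months and Mgat5 -0.00423 in that last contrast. With 1 array left out, at 1 month Man2a2 ran from -0.352 to 0.0324, Mgat1 from -0.103 to 0.0351 and Mgat5 from -0.0526 to 0.0129. At 2 months Mgat3 ran from -0.111 to 0.244 and Mgat5 from -0.0332 to 0.163, and at 3 months Mgat3 from -0.0418 to 0.137. The change of Mgat5's difference ran from -0.122 to 0.00739. From 1 to 4 months Mgat5 ran from -0.00571 to 0.0238 and Mgat1 from -0.139 to 0.0965 in mutant retinas, and Mgat5 from -0.000277 to 0.129 in normal retinas. The causes were not tested. Over the 4 ages the replicate block gave 277 calls and 4 members, and the block within age 280 and 4. At 2 months, where same-numbered arrays correlated above 0.1, that block changed no member's call. The paralog change ran from 0.908 to 1.06 over all alternatives and kept its direction and call in each.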
